A study of Homo sapiens with 10 samples.

Results

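The genes described here are 70 metalloproteinases and their relatives, measured in BEAS-2B cells and in lines picked from their soft agar colonies. They are every gene whose symbol is ADAM, ADAMTS, ADAMTSL, MMP or TIMP with a number and that a transcript cluster of the array names alone, and they make up 70 of the 18377 genes with such a cluster. There were 22 ADAM genes, 17 ADAMTS genes, 5 ADAMTSL genes, 22 MMP genes and 4 TIMP genes, on 73 clusters of the 28869 on the array. Of several clusters of a gene the brightest was used. RefSeq lists 3 of the 70, ADAM3A, ADAM5 and ADAM6, as pseudogenes.

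ADAM proteins are zinc proteinases of the cell membrane that release the outer part of growth factors, cytokine receptors and adhesion molecules, although several of them lack the catalytic site. ADAMTS proteins are their secreted relatives, which cut proteoglycans, procollagens and other matrix proteins, and ADAMTSL proteins have the matrix-binding domains of that family without the proteinase. Matrix metalloproteinases (MMPs) digest collagens and basement membrane proteins, and the TIMPs inhibit them, with TIMP3 also acting on ADAM and ADAMTS enzymes. In epithelial cells these proteins take part in the turnover of the matrix the cells rest on and in the shedding of ligands of the EGF receptor.

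BEAS-2B is an established line of immortalized human bronchial epithelial cells. In the study's design, cells cultured with Cr(VI) and cells cultured without it were plated in soft agar, and single colonies were picked and expanded as monolayers. The arrays covered 3 control lines from colonies that arose without Cr(VI), 3 lines from small colonies of Cr(VI) treated cells (Cr_small), 3 lines from large colonies of such cells (Cr_large), and the parental cells, with 1 array for each. The sample labels give potassium chromate at 0.5 μM for 30 days and then 3 weeks of soft agar as the treatment of every array, with no exception for control or parental cells, so the groups were taken from the titles, the cell type labels and the study's methods. No second exposure of the cells is named, so the p-values measure the spread between lines, each of which came from a single colony.

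Levels are given as log2 intensities, and the median of all values on the arrays was 5.86. Of the 9 epithelial markers measured, KRT8, KRT18, KRT7 and CLDN1 were higher in the 6 Cr lines, and the log2 of the summed intensity of all 9 ranged from 12.95 to 13.27 in control, 13.56 to 13.87 in Cr_small and 13.83 to 14.00 in Cr_large lines. KRT5, CDH1, EPCAM and CLDN4, which define many bronchial epithelial cells, were at or under the median in each group. None of 10 mesenchymal, 6 endothelial and 5 leukocyte markers passed the limma test (1, 1 and 2 at an unadjusted p under 0.05). The summed mesenchymal level overlapped between the groups, at 13.91 to 14.45 in control, 13.85 to 14.07 in Cr_small and 13.81 to 14.12 in Cr_large lines. The part of these differences in the results below was not tested.

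In the comparison of the 6 Cr lines with the 3 control lines, 15 of the 70 genes changed at an adjusted p under 0.05 in limma, which is 21.4%. Over all clusters 11.0% were called, over clusters with a single gene symbol 14.3%, and over those of them with a mean above the median 21.3%. Of the 30 members with a mean above the median, 13 changed. By direction, 5 members rose (7.14%, against 5.33% of all clusters and 6.91% of single-symbol ones) and 10 fell (14.3%, against 5.72% and 7.39%). The rises were of 1.13-fold to 21.2-fold and the falls of 1.32-fold to 3.36-fold. Only 3 members rose without control line 1 or 2, Cr_small line 2 or Cr_large line 3. In RNA from whole cultures, fewer cells that express a gene and less RNA per cell cannot be told apart.

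The members that changed at least 2-fold were ADAMTS1, ADAMTS5 and TIMP3, which rose, and ADAM12, ADAMTSL3 and MMP2, which fell. These 6 are 8.57% of the members, where 1.33% of all clusters and 1.80% of those with a single gene symbol passed both thresholds. With 16 taken off before log2, ADAM32 (2.48-fold lower, adjusted p = 0.000342) and ADAMTS3 (2.02-fold lower, adjusted p = 0.0104) passed both as well. The share of all clusters on that scale is not given here. The median change of the 70 genes was 0.01 on the log2 scale, the same as that of all clusters, and 54 of them differed by less than 1.3-fold. In 36 members no group mean lay above the median of all values. They were 12 ADAM, 8 ADAMTS and 15 MMP genes and TIMP4. In all 19 members had every Cr line beyond every control line (27.1%, against 16.7% of all clusters). Of these, 6 lay above (8.57%, against 8.85% of all clusters) and 13 below (18.6%, against 7.84%). Over clusters with a single gene symbol the shares were 20.7% in either direction, 11.1% above and 9.59% below. Without control line 1 there were 11 members above.

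**Figure D1:**
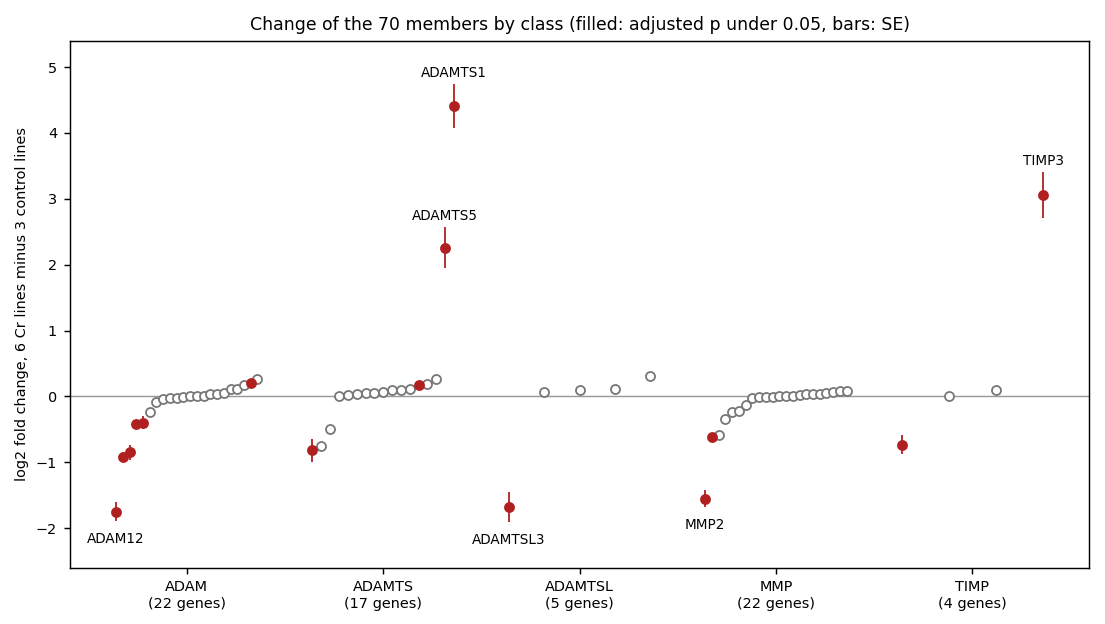
The log2 fold change of each of the 70 members in the 6 Cr lines against the 3 control lines is plotted by class. Filled points passed an adjusted p of 0.05 in limma and carry their standard error. ADAMTS1 (4.41), TIMP3 (3.06) and ADAMTS5 (2.26) stand above the other members, and ADAM12 (-1.75), ADAMTSL3 (-1.68) and MMP2 (-1.55) lie below them.

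The secreted ADAMTS enzymes that cut proteoglycans were led by ADAMTS1, which cleaves aggrecan and versican and also binds VEGF. Its level was 4.95, 5.19 and 4.87 in control lines, 9.65, 10.17 and 9.65 in Cr_small lines, 8.53, 9.99 and 8.49 in Cr_large lines and 7.15 in parental cells. Every Cr line lay far above every control line, and the parental cells lay between them. ADAMTS1 rose by 4.41 ± 0.33 (SE) on the log2 scale, or 21.2-fold (adjusted p = 0.000268). The rise was 28.3-fold in Cr_small (adjusted p = 0.000478) and it also passed the test in Cr_large lines (adjusted p = 0.00126). RMA16 adds a constant of 16 to each intensity, which shrinks the folds of dim genes, and with 16 taken off the rise was 41.5-fold.

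ADAMTS5, the main aggrecan-cutting enzyme of cartilage, lies beside ADAMTS1 on chromosome 21. Its level was 5.04, 5.14 and 5.06 in control lines, 7.69, 7.34 and 7.44 in Cr_small lines, 7.35, 7.93 and 6.26 in Cr_large lines and 6.39 in parental cells. All Cr lines were above the control lines, with Cr_large line 3 the lowest of them and close to the parental level. ADAMTS5 rose 4.77-fold (2.26 ± 0.31, SE, on the log2 scale, adjusted p = 0.00358), or 8.09-fold with 16 taken off. The rise was 5.32-fold in Cr_small (adjusted p = 0.00698) and 4.29-fold in Cr_large (adjusted p = 0.0124) lines, where without control line 3 the adjusted p was 0.0501.

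The other 4 proteoglycan-cutting members, ADAMTS4, ADAMTS8, ADAMTS9 and ADAMTS20, did not pass the test, and their log2 differences ran from 0.01 to 0.19. ADAMTS4, another aggrecan-cutting enzyme, was at 5.18, 5.24 and 5.17 in control, 5.34, 5.32 and 5.39 in Cr_small and 5.52, 5.30 and 5.43 in Cr_large lines. Its Cr lines all lay above its control lines by a small margin (0.19, adjusted p = 0.0543).

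Of the 3 procollagen N-proteinases, which trim the amino-terminal propeptide of fibrillar collagens, ADAMTS3 fell and ADAMTS2 rose slightly. ADAMTS3 was at 7.00, 6.83 and 7.03 in control, 6.32, 6.30 and 6.32 in Cr_small, 5.52, 5.90 and 6.42 in Cr_large lines and 7.28 in the parental cells. It fell 1.77-fold (adjusted p = 0.0179), and the adjusted p was 0.0718 without control line 1 and 0.0787 without control line 3. The methods' t-test gave it an adjusted p of 0.0642. ADAMTS2 was at 5.99, 5.99 and 6.02 in control, 6.12, 6.19 and 6.27 in Cr_small, 6.13, 6.15 and 6.21 in Cr_large lines and 6.10 in the parental cells. Its Cr and control lines did not overlap, but the rise of 1.13-fold (adjusted p = 0.0335) was lost without any 1 of the control lines (adjusted p 0.0911 to 0.110) and without Cr_small line 2, Cr_large line 2 or Cr_large line 3 (0.0597 to 0.0610). It was also lost under trend and robust moderation (0.115) and with the dimmest clusters left out (0.0674). The same held for renewed quantile normalization (0.0781), median centring (0.0961) and 16 taken off (0.0805). ADAMTS14 differed by 0.05 on the log2 scale and did not pass the test.

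Among the remaining ADAMTS genes none passed the test. ADAMTS12, which cuts cartilage oligomeric matrix protein, was at 8.70, 8.25 and 8.34 in control, 8.12, 7.87 and 8.11 in Cr_small and 7.48, 7.95 and 8.14 in Cr_large lines. All of its Cr lines lay below its control lines, by 0.49 on average (adjusted p = 0.0964). ADAMTS6 was at 7.75, 8.25 and 7.87 in control, 7.42, 7.71 and 7.55 in Cr_small and 6.82, 7.51 and 6.18 in Cr_large lines, with parental cells at 6.61. Its Cr lines also lay below its control lines (adjusted p = 0.113), and it was called without Cr_large line 2 (adjusted p = 0.0211).

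ADAMTSL3, a proteinase-free matrix protein also known as punctin-2, was the only 1 of the 5 ADAMTSL genes to pass the test. It was at 7.26, 6.26 and 6.52 in control, 5.25, 4.78 and 4.87 in Cr_small, 4.83, 5.33 and 4.95 in Cr_large lines and 6.97 in the parental cells. The Cr lines lay below every control line, and the parental cells stood among the control lines. ADAMTSL3 fell 3.20-fold (-1.68 ± 0.23, SE, on the log2 scale, adjusted p = 0.00328), or 5.45-fold with 16 taken off. ADAMTSL1 was at 7.66, 7.41 and 7.33 in control, 8.22, 7.73 and 8.09 in Cr_small and 7.54, 7.58 and 6.22 in Cr_large lines. Its control and Cr lines overlapped, and the difference of 0.10 did not pass the test (adjusted p = 0.901).

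In the ADAM class 5 genes fell and 1 rose. ADAM12, a membrane proteinase that cuts IGF-binding proteins and is abundant in placenta and in cells fusing to muscle, had the largest fall among the 70 members. Its level was 9.31, 8.80 and 9.29 in control, 7.70, 7.75 and 8.09 in Cr_small, 6.72, 7.01 and 7.05 in Cr_large lines and 8.68 in the parental cells. The levels of the 3 groups of lines did not overlap, with the Cr_large lines lowest. ADAM12 fell 3.36-fold in all Cr lines (-1.75 ± 0.14, SE, adjusted p = 0.000445), 2.44-fold in Cr_small lines (adjusted p = 0.00410) and 4.62-fold in Cr_large lines (adjusted p = 0.000474). With 16 taken off the fall in all Cr lines was 3.63-fold, and those of ADAMTSL3 (5.45-fold) and MMP2 (3.82-fold) were larger.

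ADAM9, a broadly expressed sheddase, was at 12.09, 12.04 and 12.09 in control, 10.92, 11.17 and 11.23 in Cr_small, 11.08, 11.29 and 11.20 in Cr_large lines and 12.24 in the parental cells. The control lines and the parental cells were close together, and all Cr lines lay below them. ADAM9 fell 1.90-fold (-0.92 ± 0.08, SE, adjusted p = 0.000420). ADAM32, a gene known from testis whose protein lacks the catalytic site, follows ADAM9 on chromosome 8. It was at 5.77, 6.27 and 5.84 in control, 5.17, 5.08 and 5.08 in Cr_small, 5.07, 5.09 and 5.19 in Cr_large lines and 5.89 in the parental cells. Its Cr lines all lay at a low level under the control lines, and it fell 1.80-fold (adjusted p = 0.00236), or 2.48-fold with 16 taken off.

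ADAM10 and ADAM17 are the best known sheddases, ADAM10 for Notch and cadherins and ADAM17 for tumor necrosis factor and ligands of the EGF receptor. ADAM10 was at 10.86, 10.69 and 10.89 in control, 10.38, 10.19 and 10.34 in Cr_small, 10.44, 10.42 and 10.55 in Cr_large lines and 10.75 in the parental cells. ADAM17 was at 9.57, 9.20 and 9.39 in control, 9.07, 9.02 and 8.89 in Cr_small, 8.86, 8.91 and 9.18 in Cr_large lines and 9.51 in the parental cells. In both genes each Cr line lay below each control line, in ADAM17 by a narrow margin. ADAM10 fell 1.34-fold (adjusted p = 0.00547) and ADAM17 1.32-fold (adjusted p = 0.0402). The ADAM17 call was lost without any 1 of control lines 1 and 3, the Cr_small lines, and Cr_large lines 1 and 2 (adjusted p 0.0597 to 0.142), and with the line numbers as a block (0.0737). The methods' t-test after Benjamini-Hochberg adjustment did not give it either (0.0636).

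ADAM33, a gene linked to asthma, was at 6.47, 6.54 and 6.54 in control, 6.67, 6.71 and 6.76 in Cr_small, 6.63, 6.79 and 6.78 in Cr_large lines and 6.58 in the parental cells. Its Cr lines lay above its control lines and it rose 1.15-fold (adjusted p = 0.0282), a call that was lost without any 1 of the control lines, Cr_small lines 2 and 3 and Cr_large lines 2 and 3 (adjusted p 0.0529 to 0.112). The call was also lost under trend and robust moderation (0.112) and with 16 taken off (0.0692). ADAM19, a relative of ADAM12, did not pass the test (0.27, adjusted p = 0.557). ADAM15 differed by 0.18 (adjusted p = 0.223). The other 14 ADAM genes differed by 0.23 or less in either direction and did not pass the test.

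**Figure D2:**
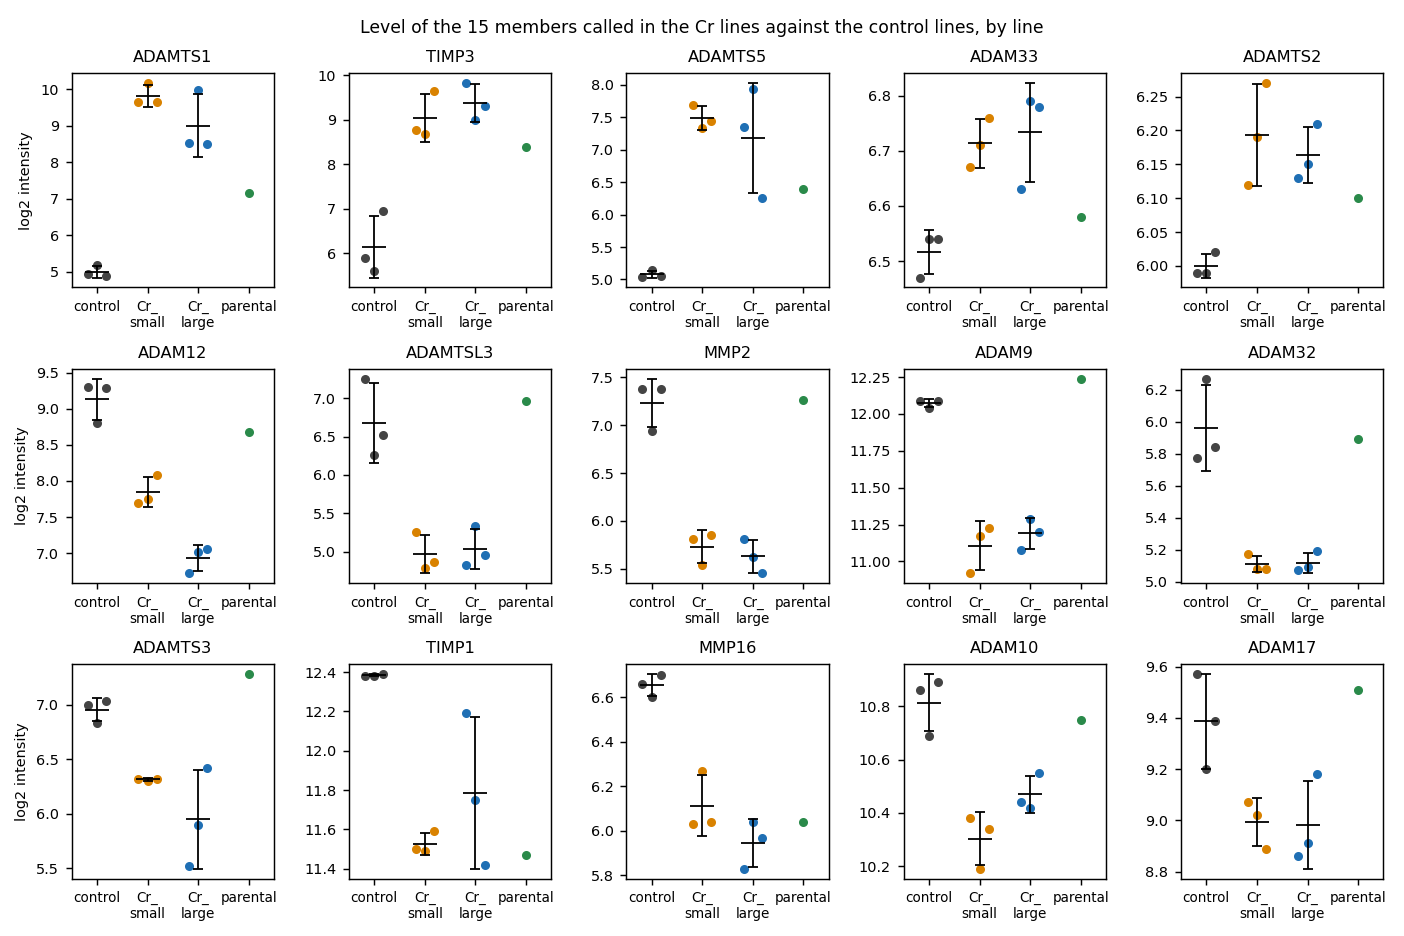
Each panel shows the log2 intensity of 1 of the 15 called members in 3 control, 3 Cr_small and 3 Cr_large lines and in the parental cells, with each panel on its own axis, which does not start at 0. Points are lines, and bars show the mean and SD of 3 lines. No Cr line overlaps a control line in any panel, and the differences of ADAM33 (0.21) and ADAMTS2 (0.18) are the smallest of the 15.

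Of the 22 MMP genes 2 fell, 0 rose and 15 had no group mean above the median of all values. MMP2, the gelatinase that digests denatured collagen and type IV collagen, was at 7.38, 6.94 and 7.38 in control, 5.81, 5.54 and 5.85 in Cr_small, 5.81, 5.62 and 5.46 in Cr_large lines and 7.26 in the parental cells. The Cr lines lay at or under the median of all values, and the control lines and parental cells above it. MMP2 fell 2.93-fold (-1.55 ± 0.13, SE, adjusted p = 0.000445), by 2.83-fold in Cr_small (adjusted p = 0.00147) and 3.04-fold in Cr_large lines (adjusted p = 0.00109). MMP9, the other gelatinase, had a mean of 5.29 in each of the 3 groups of lines.

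MMP16, a membrane-type MMP that can activate the MMP2 proenzyme, was at 6.66, 6.60 and 6.70 in control, 6.03, 6.27 and 6.04 in Cr_small, 5.83, 6.04 and 5.97 in Cr_large lines and 6.04 in the parental cells. All Cr lines and the parental cells lay below the control lines, and MMP16 fell 1.54-fold (adjusted p = 0.00153). MMP14, the principal activator of MMP2, was at 8.83, 8.37 and 8.70 in control, 8.48, 7.14 and 8.68 in Cr_small, 8.54, 8.03 and 7.41 in Cr_large lines and 8.20 in the parental cells. Its Cr lines overlapped the control lines, with Cr_small line 2 and Cr_large line 3 the lowest, and the mean difference of -0.59 did not pass the test (adjusted p = 0.395).

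MMP24 and MMP15, also membrane-type, differed by -0.35 and -0.24 and did not pass the test. The collagenases MMP1, MMP8 and MMP13 differed by -0.01 to 0.04. MMP1 was at 6.52 in Cr_large line 1 and between 4.74 and 5.36 in the other control and Cr lines. The stromelysins MMP3, MMP10 and MMP11 differed by -0.22 to 0.07 and did not pass the test.

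Among the inhibitors TIMP3 rose and TIMP1 fell. TIMP3, which binds to the matrix and inhibits ADAM17 and the aggrecan-cutting ADAMTS enzymes as well as MMPs, was at 5.90, 5.61 and 6.94 in control, 8.78, 8.69 and 9.66 in Cr_small, 9.83, 8.99 and 9.31 in Cr_large lines and 8.38 in the parental cells. The control lines were the lowest samples, with control line 3 above the other two, and every Cr line lay above the parental cells. TIMP3 rose 8.35-fold (3.06 ± 0.35, SE, adjusted p = 0.00163), by 7.44-fold in Cr_small (adjusted p = 0.00525) and 9.38-fold in Cr_large lines (adjusted p = 0.00355). A second TIMP3 cluster was at 4.82 to 5.18 in control, 5.71 to 6.81 in Cr_small and 6.07 to 6.92 in Cr_large lines, with parental cells at 5.61. Its Cr and control lines did not overlap either, and it rose 2.51-fold (adjusted p = 0.0160).

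TIMP1, a soluble inhibitor of most MMPs, was at 12.38, 12.38 and 12.39 in control, 11.50, 11.49 and 11.59 in Cr_small, 12.19, 11.75 and 11.42 in Cr_large lines and 11.47 in the parental cells. The 3 control lines were nearly equal, the Cr_large lines were spread widely below them, and the parental cells lay with the Cr_small lines. TIMP1 fell 1.66-fold in the Cr lines (-0.73 ± 0.14, SE, adjusted p = 0.0150) and 1.82-fold in Cr_small lines (adjusted p = 0.0179), and the difference of 1.51-fold in Cr_large lines did not pass the test (adjusted p = 0.0689). Without control line 1 or control line 3 the adjusted p over all Cr lines was 0.0596 or 0.0614. For Cr_small alone it was 0.0594 or 0.0625 without them, and 0.0578 or 0.0583 without Cr_small line 1 or 2.

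TIMP2, which inhibits MMP2 and with MMP14 also helps to activate it, was at 10.71, 10.14 and 10.64 in control, 10.42, 10.72 and 10.48 in Cr_small, 10.58, 10.69 and 10.66 in Cr_large lines and 11.13 in the parental cells. Control and Cr lines overlapped (0.10, adjusted p = 0.734). TIMP4 had group means of 5.53, 5.48 and 5.58 in control, Cr_small and Cr_large lines (0.01, adjusted p = 0.979), with a direction that turned under other scalings.

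The sequences before the start sites of TIMP3, ADAM12 and ADAMTSL3, 3 of the members that changed at least 2-fold, and of TIMP1, the inhibitor that moved against TIMP3, are shown so that their promoters can be set side by side. They were read from RefSeq promoters of GRCh38.p14, which matched 42 of the 70 genes, and cover the 250 bases before the start at chr22:32801455-32801704 (plus strand), chr10:126388478-126388727 (minus strand), chr15:83653873-83654122 (plus strand) and chrX:47582186-47582435 (plus strand), written 5′ to 3′ on the strand of the gene. Capitals mark GC boxes, GGGCGG on either strand, none of which overlap.
TIMP3: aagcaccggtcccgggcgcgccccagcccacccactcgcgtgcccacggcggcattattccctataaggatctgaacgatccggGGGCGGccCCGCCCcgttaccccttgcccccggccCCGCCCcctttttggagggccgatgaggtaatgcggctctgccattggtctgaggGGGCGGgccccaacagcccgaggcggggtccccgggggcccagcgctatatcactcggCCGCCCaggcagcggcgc
ADAM12: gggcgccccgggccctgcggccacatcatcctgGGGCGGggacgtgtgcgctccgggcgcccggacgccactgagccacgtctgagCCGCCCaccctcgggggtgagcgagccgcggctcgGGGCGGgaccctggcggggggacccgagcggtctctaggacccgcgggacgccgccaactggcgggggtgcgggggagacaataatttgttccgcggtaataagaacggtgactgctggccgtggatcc
ADAMTSL3: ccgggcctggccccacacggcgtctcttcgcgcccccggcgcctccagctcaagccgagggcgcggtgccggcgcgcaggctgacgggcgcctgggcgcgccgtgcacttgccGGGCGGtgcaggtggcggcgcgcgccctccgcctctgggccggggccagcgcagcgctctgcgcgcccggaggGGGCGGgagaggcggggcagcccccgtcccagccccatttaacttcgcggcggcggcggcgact
TIMP1: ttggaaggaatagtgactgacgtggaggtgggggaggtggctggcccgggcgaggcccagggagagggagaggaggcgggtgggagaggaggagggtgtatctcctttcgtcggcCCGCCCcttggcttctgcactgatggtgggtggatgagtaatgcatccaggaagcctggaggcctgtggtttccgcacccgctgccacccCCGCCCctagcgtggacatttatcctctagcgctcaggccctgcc

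The TIMP3 window, of a gene that rose, held 5 GC boxes and 26 CpG sites, and the windows of ADAM12 and ADAMTSL3, which fell, held 3 and 2 GC boxes and 31 and 40 CpG sites. TIMP1, which also fell, had 2 GC boxes and 12 CpG sites. The GC box was in 28 of the 42 member windows (66.7%), against 42.3% of 27305 RefSeq promoters of the same length. The median member window had 21.5 CpG sites and 68.4% GC, against 11 sites and 58% over all promoters. An AP-1 motif (TGANTCA, either strand), known from the MMP genes of chromosome 11, was in 4 member windows (9.52%, against 6.60% of all promoters). They were those of ADAMTS12, MMP10, MMP20 and MMP7, none of them a member that changed. The 42 windows left out the changed members ADAM9, ADAM32, ADAM33, ADAMTS1, ADAMTS5, MMP2 and MMP16, which were therefore not searched. MMP1, MMP3, MMP12 and MMP13 of chromosome 11 had no window either. A CRE (TGACGTCA, either strand) was in 0 of the 42 and in 1.77% of all promoters. A TATA box (TATAAA, either strand) was in 8 of the 42 and in 11.1% of all promoters.

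Of the 15 members that changed, 10 passed the test in Cr_small and in Cr_large lines separately. For ADAM10 the call in Cr_large lines (adjusted p = 0.0317) was lost in 5 of the 9 fits that left out 1 line (without control line 1 or 3, Cr_small line 3 or Cr_large line 1 or 2, adjusted p 0.0524 to 0.110), under trend and robust moderation (0.0730), with only the compared groups in the fit (0.0506) and with 16 taken off (0.0592). In Cr_small lines 3 members rose and 8 fell, 15.7% of the members, where 8.26% of all clusters were called, 3.79% higher and 4.47% lower. Cr_large lines gave the same counts, where 7.44% of all clusters were called, 3.33% higher and 4.11% lower. TIMP1 passed in Cr_small alone and ADAMTS3 in Cr_large alone, and both comparisons used the same 3 control lines. The ADAMTS3 call was lost without control line 1 or 3 or Cr_large line 2 (adjusted p 0.0648 to 0.0739). It was also lost with only the compared groups in the fit (0.0623). In Cr_large lines the methods' t-test after Benjamini-Hochberg gave 0.208 for ADAMTS3 and 0.157 for ADAM10. In the direct comparison of Cr_large with Cr_small lines 0 of the 70 members and 0.00% of all clusters passed. At an unadjusted p under 0.05 there were 5 members (7.14%, against 4.39% of all clusters), ADAM12, ADAMTS6, ADAMTSL1, ADAMTSL5 and MMP10, and the methods' t-test gave 2 of them at that threshold, ADAM12 and ADAMTSL5. ADAM12 was 0.92 ± 0.17 (SE) lower in Cr_large lines on the log2 scale, with an unadjusted p of 0.000553 in limma and an adjusted p of 1.00. ADAMTS1 was 0.82 ± 0.38 (SE) lower in Cr_large lines (unadjusted p = 0.0613), with Cr_large line 2 at the level of the Cr_small lines.

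The soft agar lines were also set beside the parental cells, by fold alone, since there was 1 parental array. In the control lines 5 members were at least 2-fold from the parental level (7.14%, against 1.13% of all clusters). ADAMTS1, ADAMTS5 and TIMP3 were below it, by 4.43-fold, 2.48-fold and 4.68-fold, and ADAM19 and ADAMTS6 2.31-fold and 2.54-fold higher.

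In the Cr_small lines 6 members were at least 2-fold from the parental level (8.57%, against 1.98% of all clusters), and 10 with 16 taken off before log2. ADAMTS1 (6.38-fold), ADAM19 (2.59-fold) and ADAMTS5 (2.14-fold) were higher, and MMP2 (2.89-fold) and ADAM9 (2.20-fold) lower, as was ADAMTSL3 (4.97 on the log2 scale against 6.97). In the Cr_large lines there were 9 (12.9%, against 1.83%). ADAMTS1 (3.61-fold), ADAM19 (3.00-fold) and TIMP3 (2.00-fold) were higher, and ADAMTSL3, ADAM12, MMP2, ADAMTS3, MMP24 and ADAM9 were 2.07-fold to 3.81-fold lower. The 3 comparisons share the parental array, and the control lines are also those against which the Cr lines were tested.

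Of the 15 members that changed between Cr and control lines, the parental level was nearer to the control mean in 10 and nearer to the Cr mean in 5, which were ADAMTS2, ADAMTS5, MMP16, TIMP1 and TIMP3. It lay between the means in 9. ADAMTS1, counted among the 10, was nearly midway. Its control mean differed from the parental level by -2.15 and its Cr mean by 2.26 on the log2 scale. The split was made with the constant of 16 left in. In ADAMTS1 that constant shrinks the distance to the dim control lines most, so the side of this gene depends on it. ADAM19, which cuts neuregulin, was above its parental level of 7.37 in all 9 lines, at 8.36 to 8.70 in control, 8.10 to 9.09 in Cr_small and 8.74 to 9.28 in Cr_large lines. ADAMTS6 was above its parental level in 8 of the 9 lines, and Cr_large line 3, at 6.18, was the exception.

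**Figure D3:**
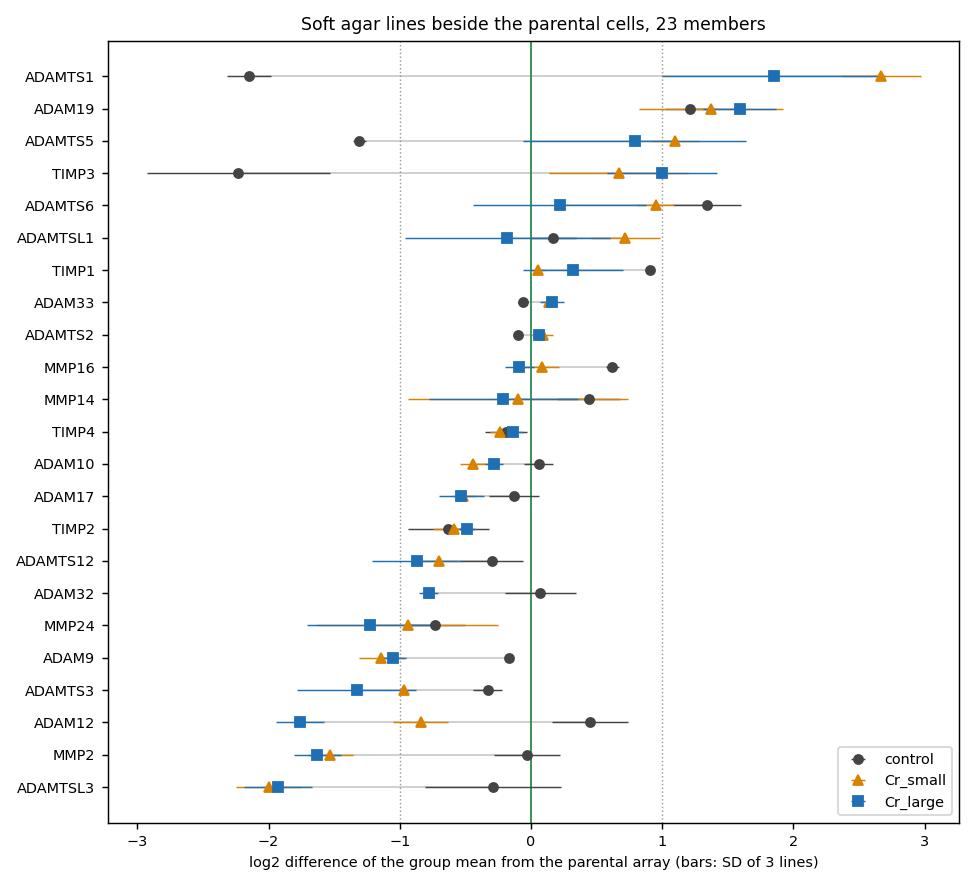
The difference of each group mean from the parental array is shown for 23 members on the log2 scale, with bars for the SD of 3 lines and dotted lines at 2-fold. ADAMTS1, ADAMTS5 and TIMP3 lie below the parental level in the control lines and above it in both Cr groups, and ADAM19 lies above it in every group.

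ADAMTS1 and ADAMTS5 are neighbours on chromosome 21 and ADAM9 and ADAM32 on chromosome 8, and the genes around them were read in RefSeq order. This and the flanking genes below were chosen after the members' values had been seen. Beside the pair on chromosome 21, CYYR1 and LINC00314 differed by -0.01 and 0.04 on the log2 scale, and of the 16 measured genes around the pair CCT8 alone passed the test (0.32, adjusted p = 0.0353). A wider reading, also used for the members below, took flanking genes with a mean log2 level over 7. Around ADAMTS1 8 of 29 such genes rose and 3 fell, with a median of 0.22. Such counts, here and below, stand beside 5.33% of all clusters called higher and 5.72% lower. Over single-symbol clusters with a mean above the median the shares were 10.3% and 11.1%. The shares over all genes with a mean log2 level over 7 were not computed. APP, a known substrate of ADAM10, lies next but 1 to ADAMTS1 and differed by 0.19 (adjusted p = 0.399).

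On chromosome 8, TM2D2, which overlaps ADAM9 in RefSeq, fell by 0.52 (adjusted p = 0.00103), and PLEKHA2, TACC1 and LETM2 on the same side fell by 0.83, 0.55 and 0.47. Beyond ADAM32 the ADAM genes ADAM5, ADAM3A, ADAM18 and ADAM2 had a mean of 4.65 or less in each group, and none passed the test. Of 40 flanking genes with a mean log2 level over 7, 20 on each side, 14 fell and 1 rose around ADAM9, with a median of -0.22, and 1 of the 40 lay below ADAM9.

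**Figure D4:**
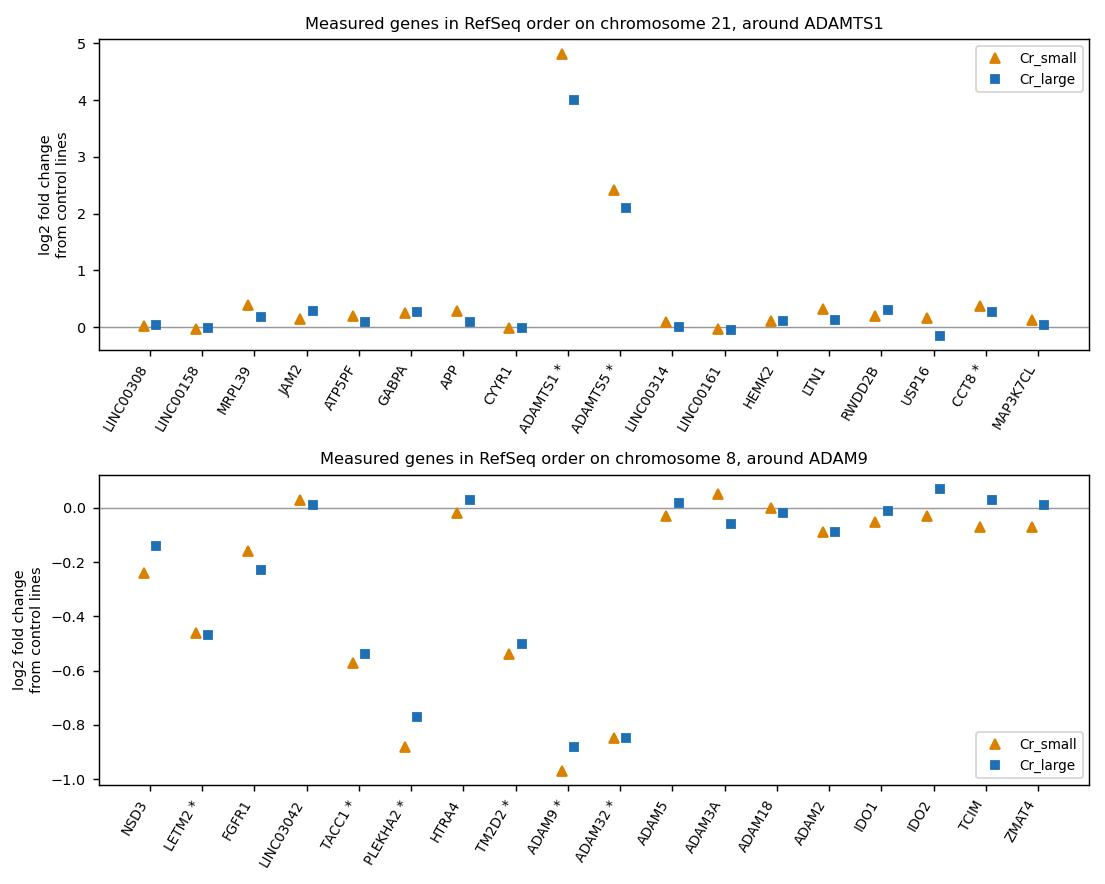
The log2 fold change from the control lines is shown for the measured genes in RefSeq order around ADAMTS1 and ADAMTS5 (top) and around ADAM9 and ADAM32 (bottom), in Cr_small and Cr_large lines. A star marks an adjusted p under 0.05 in the comparison of all Cr lines with the control lines. On chromosome 21 the called genes are ADAMTS1, ADAMTS5 and CCT8, and all genes but ADAMTS1 and ADAMTS5 lie between -0.15 and 0.39, and on chromosome 8 several genes before ADAM9 are lower as well.

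The same reading of flanking genes was made for the other members that changed. Around ADAM10 on chromosome 15 the median change of 40 genes was -0.49, with 30 of them called lower and 0 higher, and 23 of the 40 were below the -0.42 of ADAM10. Around ADAM17 on chromosome 2 the median of 33 genes was -0.33, with 17 lower and 1 higher, and 12 lay below ADAM17. IAH1, which overlaps ADAM17, fell by 1.10 (adjusted p = 0.00578).

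ADAMTSL3 on chromosome 15 (26 of 40 flanking genes lower and 0 higher, median -0.42), MMP2 on chromosome 16 (21 of 40 lower and 0 higher, median -0.34) and ADAM12 on chromosome 10 (5 of 31 lower and 2 higher, median -0.11) were below all of their flanking genes. TIMP1 on the X chromosome had 22 of 40 flanking genes lower (median -0.33), of which 7 lay below it, and ADAMTS3 on chromosome 4 had 19 of 40 lower (median -0.31), of which 5 lay below it. ADAMTS1 and TIMP3 lay above all of their flanking genes, and around TIMP3 6 of 40 rose and 4 fell, with a median of 0.08. SYN3, in which TIMP3 lies, differed by -0.05 (adjusted p = 0.813). Around MMP16 on chromosome 8, 3 of 40 flanking genes rose and 5 fell (median -0.01), and 2 lay below MMP16. Around ADAM33 on chromosome 20, 1 of 40 rose and 2 fell (median 0.07), and 29 of the 40 lay below ADAM33. Around ADAMTS2 on chromosome 5, 1 of 34 rose and 1 fell (median 0.06), and 28 of the 34 lay below ADAMTS2. Whether chromosome copies differ between the lines was not tested.

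Genes that act with these families were taken from fixed lists, and their counts stand beside 5.33% of all clusters higher and 5.72% lower, or 10.3% and 11.1% of the single-symbol clusters with a mean above the median. Of 9 further proteinases of the metzincin group 2 fell, both of which are tolloid-type procollagen C-proteinases. TLL1 was at 7.01 ± 0.86 (SD, n = 3) in control, 4.97 ± 0.07 in Cr_small and 4.93 ± 0.09 in Cr_large lines (4.16-fold, adjusted p = 0.00530). BMP1 was at 8.74 ± 0.26, 7.46 ± 0.21 and 7.48 ± 0.06 (2.41-fold, adjusted p = 0.000873). The parental levels of both were nearer to the Cr mean than to the control mean. Of 9 further metalloproteinase inhibitors 0 passed the limma test (1 at an unadjusted p under 0.05), and their median difference was 0.04.

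A list of 19 genes held activators of proenzymes and regulators of shedding and also the lysyl oxidases LOX and LOXL2, which are neither. Of the 19 genes 1 rose and 5 fell, LOXL2 among them. The plasminogen activator PLAT rose 3.03-fold, from 8.67 ± 0.30 in control to 10.17 ± 0.35 in Cr_small and 10.37 ± 1.03 in Cr_large lines (SD, n = 3, adjusted p = 0.0398). TSPAN5 and TSPAN15, tetraspanins that bind ADAM10 and steer its choice of substrate, fell 1.94-fold and 1.85-fold (adjusted p = 0.00156 and 0.00262), and LOXL2, FURIN and RHBDF1 fell 1.43-fold, 1.39-fold and 1.33-fold. LOXL2 crosslinks collagen, FURIN removes the propeptide of ADAM and membrane-type MMP proenzymes, and RHBDF1 helps ADAM17 to mature. For FURIN, TSPAN5 and LOXL2 the parental cells were nearer to the Cr lines.

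Of the 24 membrane proteins listed as cut by ADAM10 or ADAM17, 3 fell and 1 rose. The EGF receptor ligands HBEGF and EREG fell 3.23-fold and 4.43-fold (adjusted p = 7.98e-05 and 0.000113), and the Notch ligand JAG1 fell 2.36-fold (adjusted p = 0.00930). In all 4 of the called genes the parental cells lay nearer to the Cr lines. HBEGF was at 11.41 in control lines and 9.79 in the parental cells, EREG at 7.89 and 5.96, and JAG1 at 8.38 and 6.86 (log2, control means of 3 lines). The adhesion molecule L1CAM rose 4.59-fold, from 7.21 ± 0.19 in control to 9.36 ± 0.15 in Cr_small and 9.46 ± 0.11 in Cr_large lines (SD, n = 3, adjusted p = 2.19e-05), and was at 8.99 in the parental cells. The median of the list was 0.07.

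Of the 16 collagens and basement membrane proteins listed as MMP substrates 7 fell and 0 rose, with a list median of -0.37. COL5A2 fell 20.5-fold, from 9.55 ± 0.09 in control to 5.22 ± 0.07 in Cr_small and 5.15 ± 0.08 in Cr_large lines (SD, n = 3, adjusted p = 3.23e-08), and was at 9.11 in the parental cells. COL4A1 fell 2.92-fold, LAMB1 2.26-fold and COL5A1 2.10-fold (adjusted p = 0.00134, 0.0264 and 0.00986), and COL4A2, COL4A5 and LAMC1 fell by 1.39-fold to 1.69-fold. In 4 of the 7, COL4A1, COL4A2, COL5A1 and LAMB1, the parental level was nearer to that of the Cr lines.

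Of the 16 matrix proteins listed as ADAMTS substrates 2 fell, the small proteoglycan BGN by 5.61-fold (adjusted p = 0.000182) and TGFBI by 2.14-fold (adjusted p = 0.0153), and 0 rose. Of 13 fibrillins and partners of ADAMTSL proteins 3 fell, LTBP2 by 2.88-fold, FBLN1 by 2.87-fold and FBN1 by 2.12-fold (adjusted p = 0.00127, 0.00504 and 0.0107). The parental cells were nearer to the Cr lines in BGN, TGFBI and LTBP2, and nearer to the control lines in FBLN1 and FBN1. The lists' median differences were 0.01 and -0.24, where that of all clusters was 0.01.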

How the data were processed

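The platform was the Affymetrix Human Gene 1.0 ST array, with 10 arrays of BEAS-2B cells and lines derived from them, so the number of arrays limits the precision. The deposited intensities had been made by the authors with RMA16 in GeneSpring v11, which corrects background, normalizes by quantiles and summarizes the probes of a transcript cluster. They ran from 20 to 16979.5 on a linear scale with no baseline set, although a baseline transformation is named in the methods. A log2 scale had been assumed in planning, so log2 of the values was taken. GEO's platform annotation named 1 gene for 19310 clusters, several for 1752 and none for 7807.

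A linear model with 4 group means was fitted across all 28869 clusters with limma 3.58.1 (R 4.3.3, lmFit and eBayes, 6 residual and 1.96 prior degrees of freedom). Benjamini-Hochberg adjustment covered all clusters, with a threshold of 0.05. Differences from the single parental array carry no test. The limma fit of the Cr lines against the control lines was tested on simulated arrays with known changes. The other steps were not tested in this way. Figures were drawn with matplotlib 3.10.9.

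The members and gene lists were chosen with earlier results of these data known. ADAMTS1, ADAMTS5, TIMP3 and MMP2 are among the genes that the study drew from these arrays. So are L1CAM, BGN, FBLN1, FBN1, COL4A1, COL5A1, COL5A2 and LAMB1 of the gene lists. Genes named by rule were members called in any comparison, the TIMP genes, ADAM10 and ADAM17, the brightest member of each class, members at least 2-fold from the parental array, and up to 4 called genes of each list. Others were named after their values were seen.

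Alternatives were the methods' t-test, limma with trend and robust moderation, the compared groups alone, the dimmest 25% of clusters left out, single-symbol clusters alone, gene means over clusters, renewed quantile normalization, median centring, 16 taken off before log2, line numbers as a block, and each line left out. Residuals of same-numbered lines correlated from -0.145 to 0.0984 in 9 pairs. Lines with different numbers were not compared, so these values do not settle whether the numbers pair the lines.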

Additional observations from a re-analysis of the deposited data

How the results depend on the processing

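With 3 lines a group, 1 parental array and no second exposure, the comparisons speak for these lines, and the constant in RMA16 makes the folds of dim members too small. The 10 members called in both Cr groups stayed called over all Cr lines in every alternative run, and the changes of ADAM17, ADAM33, ADAMTS2, ADAMTS3 and TIMP1 did not. Leaving out each line gave 3 to 5 higher members (3 without control line 1 or 2, Cr_small line 2 or Cr_large line 3) and 7 to 10 lower ones, against 5 and 10. The methods' t-test gave 8 higher members at an unadjusted p under 0.05, and limma with trend and robust moderation 3. For Cr_small the t-test gave 7 higher members unadjusted and 3 lower ones after Benjamini-Hochberg, against 3 and 8. For Cr_large it gave 10 higher members unadjusted, and 0 higher and 1 lower after Benjamini-Hochberg, against 3 and 8. For Cr_large against Cr_small it gave 1 higher and 1 lower member unadjusted, ADAMTSL5 and ADAM12, and the cause of these differences was not tested.

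With line numbers as a replicate block Cr_large lines had 5 higher members in place of 3, and over all Cr lines 5 were higher and 9 lower, with ADAM17 lost. The sample titles name no pairing by number, and the block changed no other count by over 1.5 times. Members whose Cr lines all lay above the control lines numbered 6 to 11 with lines left out, with 11 without control line 1. With 16 taken off, 10 members in place of 6 were at least 2-fold from the parental level in Cr_small, and leaving out lines gave 6 to 11 in place of 9 in Cr_large. Another scaling moved the median of all clusters by 0.04 at most. Of the 23 members run under every alternative, the direction over all Cr lines turned in 3, which did not pass the test. TIMP4, at 0.01, came to -0.03 after renewed quantile normalization or median centring and ran from -0.08 to 0.08 with lines left out. TIMP2 ran from -0.08 to 0.20, with -0.08 without control line 2, and ADAMTSL1 from -0.02 to 0.32, with -0.02 without Cr_large line 2 and 0.32 without Cr_large line 3.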

Other observations

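Clusters that the rule left out were read as well. A cluster shared by MMP23A and MMP23B was at 6.67 to 6.94 in control, 6.82 to 6.98 in Cr_small and 6.87 to 6.98 in Cr_large lines (log2 difference 0.14, adjusted p = 0.274). A cluster shared by ADAM21 and the pseudogene ADAM21P1 was at 4.61 to 4.86, 4.86 to 5.28 and 4.76 to 5.11 (0.26, adjusted p = 0.193). In both the Cr lines overlapped the control lines.

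A second MMP16 cluster was at 6.47, 6.07 and 6.42 in control, 5.49, 6.07 and 5.81 in Cr_small and 5.37, 5.47 and 5.51 in Cr_large lines. It fell 1.63-fold (adjusted p = 0.0148), where the brighter MMP16 cluster fell 1.54-fold, though Cr_small line 2 stood level with control line 2. A second ADAMTSL1 cluster differed by -0.04 (adjusted p = 0.780).

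REXO4, which overlaps ADAMTS13 in RefSeq, was 0.60 higher in the Cr lines on the log2 scale (adjusted p = 0.00188), and ADAMTS13 itself differed by 0.09 (adjusted p = 0.436).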
